A study of Xenopus laevis with 6 samples.

Results

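The genes described here are regulators known from pluripotent and germ cells of vertebrates: the POU-domain genes pou5f3.1, pou5f3.2 and pou5f3.3, the ventx homeobox genes, prdm1 and prdm14, klf4, lin28a and lin28b, and sall1 and sall4. They were found by their symbols in 2 tables of read counts from the African clawed frog Xenopus laevis, one tagged v9.1 and one tagged v7.1. The v9.1 table held 11 of these gene models among 10364, and the v7.1 table held 15 among 7902, which made 26 gene models of 15 symbols. Of these symbols, 4 (klf4, lin28a, lin28b and sall1) were in both tables, 2 (pou5f3.1 and prdm14) in v9.1 alone and 9 in v7.1 alone. Both tables were counted from the same 6 libraries, so one is no replicate of the other.

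The study compared primordial germ cells (PGCs), the embryonic precursors of eggs and sperm, with neighbouring endoderm cells, to find transcripts enriched in the germ line once both lineages have separated. There were 3 libraries of PGCs and 3 of endoderm cells, both from embryos of stages 12 to 14, around the end of gastrulation and the start of neurulation. The labels name no genotype, strain, treatment or number of embryos and cells. RNA was depleted of ribosomal RNA and sequenced as paired ends, and because libraries were made from aliquots of depleted RNA, the p-values speak of differences from library to library that may be technical.

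Pou5f3 proteins are the frog counterparts of mammalian Oct4 (Pou5f1), the POU factor that holds mammalian pluripotent cells undifferentiated. pou5f3.3 (oct60) is a maternal RNA of the oocyte and egg, while pou5f3.2 (oct25) and pou5f3.1 (oct91) are transcribed in the blastula and gastrula. Frogs have no nanog gene, and Ventx proteins, ventral homeobox repressors switched on by BMP signals, have been given Nanog-like roles in keeping early cells uncommitted. In the mouse, Prdm1 (Blimp1) and Prdm14 are needed to specify PGCs, Klf4 is a reprogramming factor, Lin28 proteins bind let-7 precursor RNAs and block their maturation, and Sall4 is a zinc-finger protein of pluripotent cells and germ cells. Frog PGCs instead inherit germ plasm, RNA-rich cytoplasm from the vegetal pole of the egg, and lie in the endoderm at these stages.

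The v9.1 counts summed to 9.94 to 28.3 M per endoderm library and 14.5 to 16.9 M per PGC library. Levels are CPM, counts per M of the library size as scaled for composition by TMM, and group values are means ± SD (n = 3 libraries). Fold changes are log2 of PGC over endoderm ± standard error. That error was derived from the test below, as the absolute log2 fold change fitted without a prior count over the root of F. A gene model was called changed at an adjusted p under 0.05 in the quasi-likelihood test of edgeR, adjusted by Benjamini-Hochberg over the whole table. The germ plasm RNAs nanos1 (25.2 to 36.8 CPM in endoderm, 6140 to 6714 in PGCs) and dazl (73.9 to 88.0 against 16440 to 16474) separated the groups as labelled. Of 9 v9.1 gene models of PGC markers 7 were higher in PGCs and 1, of ddx4 (Xelaev18008273m, -0.92), was lower. Under lowess offsets this ddx4 gene model was at -0.08 and was not called. Of 18 of endoderm markers 12 were lower, such as gata6 (Xelaev18033648m, 786 to 888 CPM in endoderm and 322 to 349 in PGCs), and 3 were higher, of mixer (3.15) and gata4 (1.53 and 0.36); under lowess offsets 6 were lower and 4 higher. Of 12 v9.1 gene models of ectoderm markers, 6 were higher and 4 lower in PGCs, at a median log2 of 1.59. Their summed level, 1734 to 1875 CPM in endoderm and 1501 to 1554 in PGCs, was mostly that of both epcam gene models (means of 816 and 738 CPM in endoderm, 656 and 483 in PGCs), while sox3.S went from 6.03 to 73.4 CPM and krt12 from 1.81 to 17.3 CPM. Of 18 of mesoderm markers, 6 were higher and none (0) lower, summed at 234 to 245 against 397 to 508 CPM. In v7.1, where pou5f3.2, pou5f3.3 and the ventx genes were read, 8 of 15 ectoderm marker gene models were higher and 4 lower (median 2.03). Of 15 mesoderm marker gene models there, 4 were higher and none (0) lower (median 1.33). No gene model of either marker list was at 0 over a group, but some were close to it in endoderm. Summed over libraries in v9.1, the mesoderm markers pcdh8 (Xelaev18015748m) and twist1 (Xelaev18030956m) had 1 and 4 counts in endoderm and 1240 and 2784 in PGCs. The ectoderm marker zic1 (Xelaev18029829m) had 12 and 2513. All of these endoderm counts came from endoderm replicate 1, as did those of prdm14 below. The part of other cells in the results below was not tested.

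The regulators did not move as one group. In v9.1, 2 of 11 gene models were higher in PGCs, 6 were lower and 3 were not called, where 29.3% of all gene models in the table were called (12.6% higher, 16.8% lower). In v7.1, 7 of 15 were higher, 4 lower and 4 not called, where 28.9% of the table was called (12.8% higher, 16.1% lower). The higher gene models were those of pou5f3.2, pou5f3.3, ventx1.1, ventx1.2, ventx2.1, ventx2.2, ventx3.2, prdm14 and klf4, and the lower ones those of pou5f3.1, prdm1, lin28a, sall1 and sall4, while no lin28b gene model was called. The median log2 fold change of the regulators was -0.70 in v9.1, beside 0.07 for all gene models, and 1.07 in v7.1, beside 0.06. The 2 tables list different members, and the 4 shared symbols had no gene models called in opposite directions. In v9.1 the groups did not overlap for 8 of 11 gene models (48.2% of the table), with PGCs above in 2 (24.5%) and below in 6 (23.7%). In v7.1 they did not overlap for 12 of 15 (46.5%), with PGCs above in 8 (23.5%) and below in 4 (23%). In bulk RNA a lower level can mean fewer cells that hold the RNA or less RNA in each, and these cannot be told apart.

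**Figure D1:**
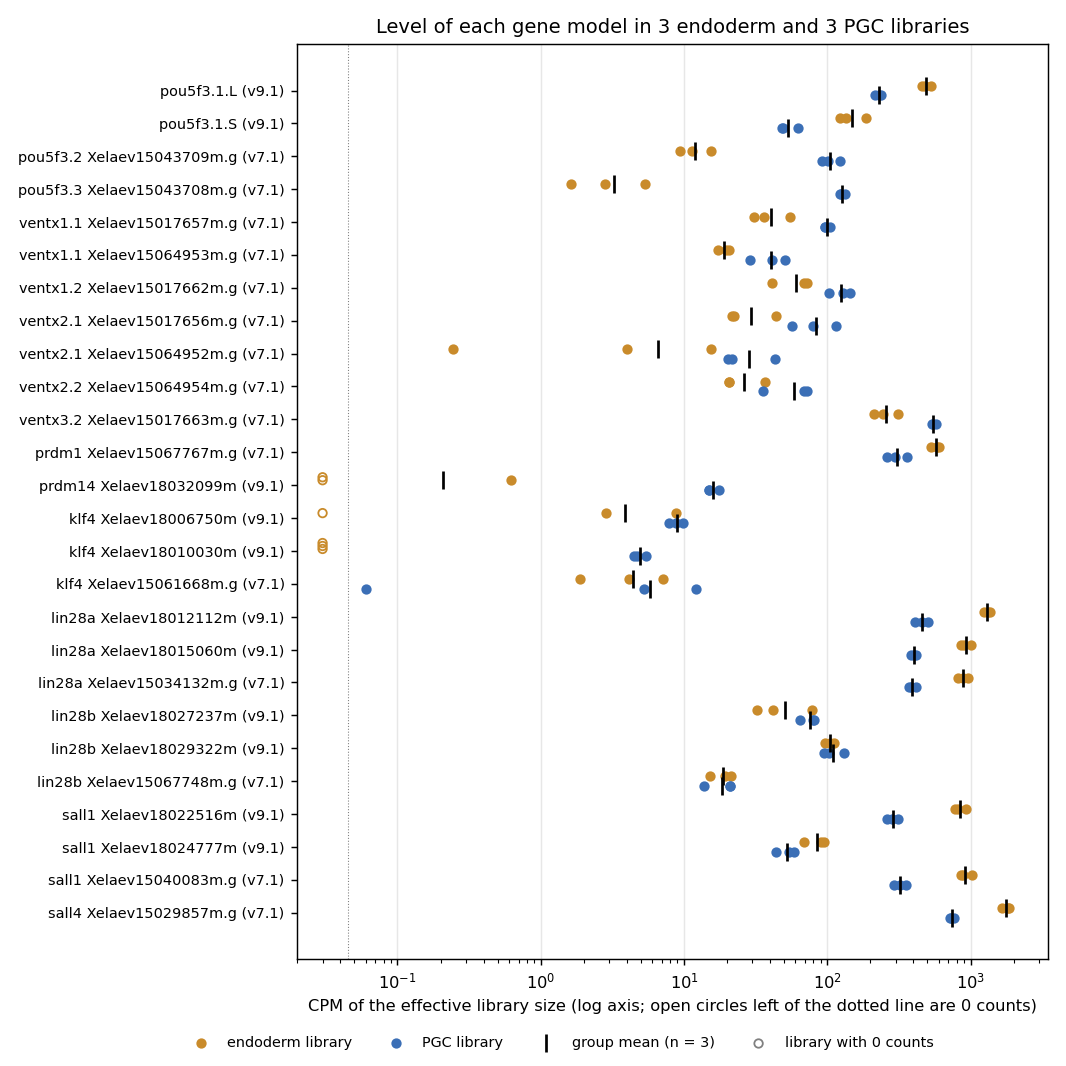
CPM of each regulator gene model in each of the 3 endoderm and 3 PGC libraries, on a log axis. pou5f3.2, pou5f3.3 and prdm14 sit far higher in every PGC library, while lin28a, sall1, sall4, prdm1 and pou5f3.1 sit lower in every PGC library.

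The 3 pou5f3 genes split by direction. pou5f3.3 (Xelaev15043708m.g), the maternal oct60, was at 2.82, 5.31 and 1.62 CPM in endoderm replicates 1, 2 and 3 and at 132, 125 and 122 CPM in PGC replicates 1, 2 and 3. Every PGC library was far above every endoderm library, and the level was 37.8-fold higher in PGCs (log2 5.24 ± 0.41, adjusted p = 3.69e-07). The endoderm levels rested on 66, 87 and 13 counts, beside 2207, 1803 and 1744 in PGCs.

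pou5f3.2 (Xelaev15043709m.g), the oct25 gene, was at 15.4, 11.4 and 9.37 CPM in endoderm and at 100.5, 91.3 and 122 CPM in PGCs. The groups did not overlap, and its mean rose from 12.0 ± 3.05 CPM in endoderm to 104.8 ± 15.97 CPM in PGCs, 8.65-fold (log2 3.11 ± 0.31, adjusted p = 4.86e-06). In RefSeq's gene table (assembly Xenopus_laevis_v10.1), pou5f3.3, pou5f3.2 and pou5f3.1 follow each other with 0 annotated genes between them, on both the L and the S chromosomes. Xenopus laevis is an allotetraploid and keeps many genes as such an L and S pair of homeologs.

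pou5f3.1, the oct91 gene at the end of that row, went the other way. pou5f3.1.L was at 485, 456 and 529 CPM in endoderm and at 217, 238 and 229.8 CPM in PGCs. All PGC libraries lay below all endoderm libraries (log2 -1.101 ± 0.12, adjusted p = 1.92e-05). pou5f3.1.S was at 123, 187 and 136 CPM in endoderm and at 49.4, 62.8 and 48.4 CPM in PGCs. It was lower in every PGC library too (log2 -1.47 ± 0.22, adjusted p = 0.000285). pou5f3.1 was read in v9.1 and its neighbours in v7.1, so the difference between them was not tested in 1 fit.

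The ventx genes, repressors of dorsal genes downstream of BMP, were higher in PGCs wherever they were called: of 7 gene models in v7.1, 5 were higher, none (0) was lower and 2 were not called, and in 6 the groups did not overlap, with PGCs above. Over all v7.1 gene models, 12.8% were called higher and 16.1% lower, and PGCs were above without overlap in 23.5%. ventx3.2.S (Xelaev15017663m.g) was at 243, 314 and 213 CPM in endoderm and at 546, 571 and 536 CPM in PGCs. Each PGC library was above each endoderm library, and the mean rose from 257 ± 51.5 to 551 ± 18.0 CPM (log2 1.099 ± 0.15, adjusted p = 7.46e-05).

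ventx1.1.S (Xelaev15017657m.g) was at 30.8, 54.8 and 36.5 CPM in endoderm and at 96.7, 105 and 96.5 CPM in PGCs (log2 1.29 ± 0.28, adjusted p = 0.00307). The other ventx1.1 gene model, ventx1.1.L (Xelaev15064953m.g), was at 17.2, 20.6 and 19.6 CPM in endoderm and at 41.2, 28.8 and 50.7 CPM in PGCs. Its groups did not overlap either, but its log2 difference of 1.07 ± 0.40 did not pass the test (adjusted p = 0.061); without PGC replicate 2 it was 1.26 with an adjusted p of 0.0449. ventx1.2.S (Xelaev15017662m.g) was at 41.4, 69.0 and 71.9 CPM in endoderm and at 143, 128 and 103 CPM in PGCs, without overlap (log2 1.04 ± 0.26, adjusted p = 0.00809).

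The calls of the ventx2 genes moved with single libraries. Of the 2 gene models of ventx2.1, Xelaev15017656m.g was at 22.5, 43.8 and 21.7 CPM in endoderm and at 116, 56.8 and 79.1 CPM in PGCs (log2 1.51 ± 0.37, adjusted p = 0.00673). The groups did not overlap, and without PGC replicate 1 the log2 difference was 1.21 with an adjusted p of 0.0563. The other, Xelaev15064952m.g, was at 15.5, 0.244 and 3.997 CPM in endoderm, which is 364, 4 and 32 counts, and at 20.4, 43.1 and 21.6 CPM in PGCs. Its log2 difference of 2.09 ± 0.97 did not pass the test (adjusted p = 0.128), and without endoderm replicate 1 it was 3.85 with an adjusted p of 0.0225. Summed over both gene models, ventx2.1 was higher in PGCs (log2 1.66 ± 0.28, adjusted p = 0.000422).

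ventx2.2 (Xelaev15064954m.g) was at 37.0, 20.5 and 20.7 CPM in endoderm and at 35.5, 72.1 and 68.4 CPM in PGCs. PGC replicate 1 lay below endoderm replicate 1, so the groups overlapped. Its log2 difference of 1.17 ± 0.39 passed the test (adjusted p = 0.0375), and the call was lost without endoderm replicate 2 (1.04) or 3 (1.05) and without PGC replicate 2 (0.99) or 3 (1.04). The RefSeq table places ventx3.2, ventx1.2, ventx2.2, ventx1.1 and ventx2.1 in one row on the L chromosome with 0 annotated genes between neighbours, and in the same order on the S chromosome, with 1 gene between ventx1.2.S and ventx2.2.S. The 5 ventx symbols thus form a second run of neighbouring members, here with all called members on the PGC side.

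The PRDM genes, which encode PR-domain zinc-finger repressors, also split. prdm14 (Xelaev18032099m) was at 0.622, 0 and 0 CPM in endoderm and at 15.1, 14.96 and 17.5 CPM in PGCs. All 16 endoderm counts came from endoderm replicate 1, beside 284, 246 and 285 counts in the PGC libraries. The level was 66.3-fold higher in PGCs (log2 6.05 ± 1.49, adjusted p = 0.0083). Without endoderm replicate 1, which held all endoderm counts, the endoderm was at 0. Taking 3 counts over the endoderm group as the floor, PGCs were then at least 141-fold above endoderm replicates 2 and 3. That bound covers counting error only. It is no lower bound over all 3 endoderm libraries, where the level was 66.3-fold higher. In endoderm replicates 2 and 3, 603 and 487 v9.1 gene models had 0 counts, against 35 in endoderm replicate 1 and 98 to 145 in the PGC libraries. Over 13 other settings prdm14 stayed past the threshold, with adjusted p from 6.2e-07 to 0.0372. Those settings that changed only the low-count filter repeated the main fit. In v9.1, 87 gene models (0.839%) had at most 16 counts over the endoderm libraries. The lowest total of a v9.1 gene model was 150 counts, so these are listed mainly through their PGC counts. Their share is no measure of rarity.

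prdm1.S (Xelaev15067767m.g), known in frog embryos for the anterior endomesoderm, was at 532, 599 and 582 CPM in endoderm and at 262, 358 and 297 CPM in PGCs. All PGC libraries were below all endoderm libraries (log2 -0.90 ± 0.14, adjusted p = 0.000206). Under lowess offsets prdm1.S was at -0.25 and was not called (adjusted p = 0.195). By TMM, prdm1, read from 1 gene model, was thus the PRDM gene of mouse PGC specification with the lower level in these PGCs. prdm14 was the one with the higher level, each read in another table.

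klf4, a Krüppel-like zinc-finger factor, was called in 1 of its 3 gene models. Xelaev18010030m had 0 counts in all 3 endoderm libraries and 89, 90 and 73 counts in PGC replicates 1, 2 and 3, which is 4.72, 5.47 and 4.49 CPM. Its 252 PGC counts made it at least 85.5-fold higher in PGCs, with 3 counts over the endoderm group as the floor (adjusted p = 0.0208), and this bound was 43.6 without endoderm replicate 1. The call was lost without PGC replicate 1, 2 or 3 (adjusted p = 0.0615, 0.0681 and 0.0586). In v9.1, 18 gene models (0.174%) had 0 counts over the endoderm libraries. The lowest total of a v9.1 gene model was 150 counts, so these 18 are listed only through their PGC counts. Their small share is therefore no measure of how rare such a pattern is.

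The other v9.1 gene model of klf4, Xelaev18006750m, had 73, 0 and 77 counts in endoderm and 149, 162 and 144 in PGCs. In CPM, endoderm was at 2.84, 0 and 8.73 and PGCs at 7.90, 9.85 and 8.85, so endoderm replicate 3 reached the PGC range. The difference did not pass the test (log2 1.21 ± 1.46, adjusted p = 0.596). Counts of 0 or 1 beside at least 50 in another library of the group were found for 9.92% of v9.1 gene models. The v7.1 gene model of klf4, Xelaev15061668m.g, had 97, 31 and 57 counts in endoderm and 1, 76 and 172 in PGCs, and was not called (log2 0.40 ± 1.53, adjusted p = 0.88). Summed over both v9.1 gene models, klf4 was not called either (log2 1.86 ± 1.32, adjusted p = 0.315).

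The RNA-binding genes of the let-7 pathway differed from each other. lin28a was lower in PGCs in all 3 of its gene models. Xelaev18012112m was at 1239.95, 1375 and 1325 CPM in endoderm and at 508, 409 and 462 CPM in PGCs (log2 -1.51 ± 0.10, adjusted p = 3.04e-07). Xelaev18015060m was at 854, 1011 and 906 CPM in endoderm and at 417, 404 and 382 CPM in PGCs (log2 -1.203 ± 0.10, adjusted p = 2.52e-06). The groups were apart in both. The v7.1 gene model lin28a.S (Xelaev15034132m.g) was at 817, 958 and 882 CPM in endoderm and at 418, 385 and 369 CPM in PGCs (log2 -1.18 ± 0.11, adjusted p = 2.17e-06).

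lin28b, its paralog, showed no call in any of 3 gene models. Xelaev18027237m was at 41.8, 78.8 and 32.2 CPM in endoderm and at 81.4, 64.8 and 79.3 CPM in PGCs (log2 0.56 ± 0.32, adjusted p = 0.226), and without endoderm replicate 2, the one inside the PGC range, it was 1.05 with an adjusted p of 0.0185. Xelaev18029322m was at 105, 111 and 95.7 CPM in endoderm and at 103, 94.7 and 131 CPM in PGCs (log2 0.08 ± 0.19, adjusted p = 0.816). The v7.1 gene model lin28b.S (Xelaev15067748m.g) was at 21.3, 19.5 and 15.2 CPM in endoderm and at 13.8, 20.9 and 20.9 CPM in PGCs (log2 -0.01 ± 0.51, adjusted p = 0.991). The groups overlapped in all 3. In the RefSeq table prdm1 and lin28b lie near each other, with 4 annotated genes between them on the L chromosome and 7 on the S chromosome.

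sall1 and sall4, spalt-like genes whose zinc-finger proteins recruit the NuRD deacetylase complex, were lower in PGCs. Their relative sall3, which is outside the set, was called higher in v7.1 (log2 1.44 ± 0.48, adjusted p = 0.0375), a call lost in 6 of 13 other settings (1.13 to 1.46). sall4 (Xelaev15029857m.g), the member needed in mouse pluripotent cells, was at 1817, 1670.3 and 1853 CPM in endoderm and at 727, 716 and 773 CPM in PGCs. Each PGC library was below each endoderm library (log2 -1.27 ± 0.08, adjusted p = 8.01e-08). sall1 (Xelaev18022516m) was at 815, 933 and 784 CPM in endoderm and at 262, 313 and 285 CPM in PGCs, also without overlap (log2 -1.56 ± 0.12, adjusted p = 7.06e-07). The v7.1 gene model sall1.L (Xelaev15040083m.g) was at 885, 1017 and 852 CPM in endoderm and at 290.3, 355 and 323 CPM in PGCs (log2 -1.51 ± 0.12, adjusted p = 4.46e-07). The second v9.1 gene model of sall1, Xelaev18024777m, was at 95.2, 90.3 and 69.2 CPM in endoderm and at 58.4, 44.2 and 54.4 CPM in PGCs. It did not overlap, and its call (log2 -0.70 ± 0.24, adjusted p = 0.0441) was lost in 10 of 13 other settings, with log2 differences from -0.79 to -0.38 in those 10.

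**Figure D2:**
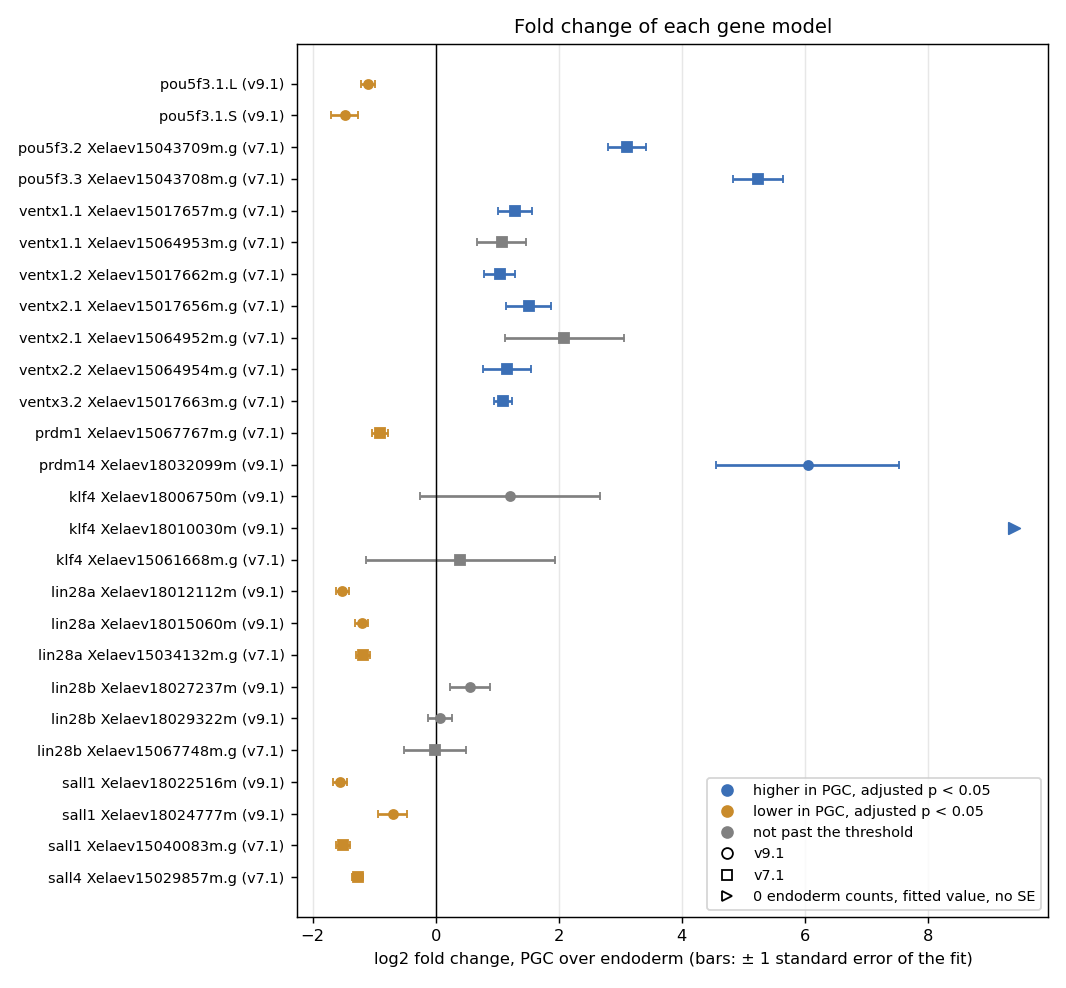
log2 fold change of PGC over endoderm for each regulator gene model, with its standard error where both groups had counts, in the v9.1 and v7.1 tables. pou5f3.3, pou5f3.2 and prdm14 lie at 5.24, 3.11 and 6.05, the ventx gene models at 1.04 to 2.09, and pou5f3.1, prdm1, lin28a, sall1 and sall4 between -1.56 and -0.70.

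Abundant gene models as a whole were lower in PGCs, so the regulators were also read beside gene models of like level. In the top decile of v9.1 gene models by mean level, the median log2 difference was -0.75, with 70% called lower and 10.4% called higher. Within that decile, 15.7% and 28.2% of gene models had a lower log2 difference than the lin28a gene models Xelaev18012112m and Xelaev18015060m, 14.5% than sall1 Xelaev18022516m and 32.2% than pou5f3.1.L. In the top decile of v7.1, at a median of -0.65 and 64.9% called lower, 21.4% lay below sall4, 25.5% below lin28a.S, 36.7% below prdm1.S and 14.2% below sall1.L. pou5f3.1.S was in the next lower v9.1 decile (median -0.35, 38.5% called lower), of which 6.56% lay below it. ventx3.2.S was in the same v7.1 decile, and 93.6% of it lay below ventx3.2.S.

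The genes that were higher in PGCs stood at the other end of their own deciles. No gene model in the decile of pou5f3.3 (median -0.00, 20% called higher) had a higher log2 difference, and 98.4% of the decile of pou5f3.2 lay below it. For prdm14 this share was 98.8%. As prdm14 is listed mainly through its PGC counts, that share is no measure of rarity. For ventx1.1.S, ventx1.2.S, Xelaev15017656m.g of ventx2.1 and ventx2.2 these shares were 91.4%, 88.2%, 90.9% and 81.4%.

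The scaling between libraries moved the sizes of the differences, and the signs of the called members stayed the same. Over the 19 called gene models and 3 other scalings (DESeq2 size factors, total counts and lowess offsets, which let the scaling follow expression level), 0 of 57 values had another sign and 50 were past the threshold. The median over all v9.1 gene models was 0.07 by TMM, 0.39 by total counts and -0.04 by lowess offsets, and in v7.1 it was 0.06, 0.25 and -0.03. Under lowess offsets the lower members drew nearer to 0: pou5f3.1.L was at -0.38, sall1 Xelaev18022516m at -0.69, sall4 at -0.28 and lin28a Xelaev18012112m at -0.48. lin28a Xelaev18015060m at -0.26 (adjusted p = 0.0761) and prdm1.S at -0.25 (adjusted p = 0.195) were then no longer called, nor were klf4 Xelaev18010030m, ventx2.2 (1.05) and sall1 Xelaev18024777m (-0.59). Of the higher members, pou5f3.3 was at 4.93, pou5f3.2 at 2.97, prdm14 at 4.34 and ventx3.2.S at 1.72.

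**Figure D3:**
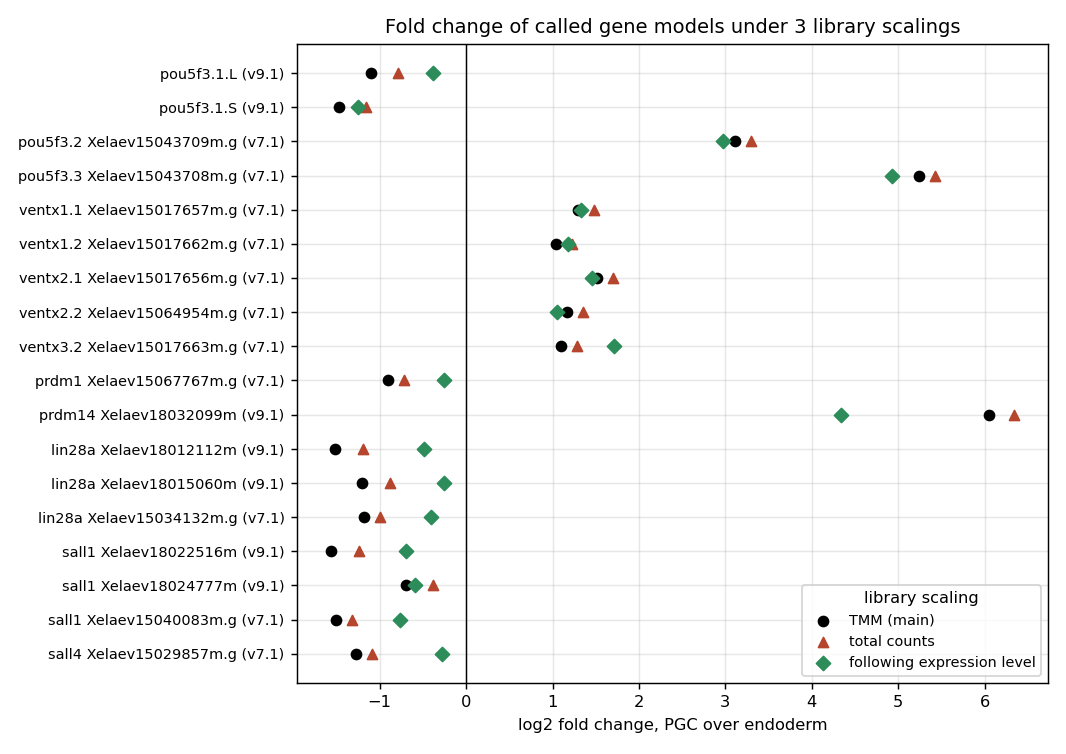
log2 fold change of PGC over endoderm of the called regulator gene models under TMM, total counts and lowess offsets. klf4 Xelaev18010030m, with 0 counts in endoderm, is left out; no point changes side of 0, and the members that are lower in PGCs lie nearer to 0 under lowess offsets than under TMM.

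Whether gene models of 1 symbol differ in their PGC over endoderm ratio was tested with library as a block, over 3512 symbols with exactly 2 gene models in v9.1, of which 9.74% were called. Of the 5 regulator symbols tested, sall1 was called. Xelaev18022516m held 89.5, 91.2 and 91.9% of the sall1 counts in endoderm and 81.8, 87.6 and 84.0% in PGCs, so Xelaev18024777m was less reduced (log2 ratio difference 0.86 ± 0.21, adjusted p = 0.0388). The call was kept without PGC replicate 2 (1.04) and lost on leaving out any of the other 5 libraries (0.71 to 0.97).

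The remaining pairs did not pass. Xelaev18012112m held 59.2, 57.6 and 59.4% of the lin28a counts in endoderm and 54.9, 50.3 and 54.7% in PGCs (0.32 ± 0.13, adjusted p = 0.156). pou5f3.1.L held 79.8, 70.9 and 79.5% of the pou5f3.1 counts in endoderm and 81.4, 79.1 and 82.6% in PGCs (S minus L -0.36 ± 0.23, adjusted p = 0.39). For lin28b the difference was -0.59 ± 0.37 (adjusted p = 0.37). For klf4, with 1 gene model at 0 in endoderm, the adjusted p was 0.0977. In v7.1, where 1.47% of 1022 pairs were called, ventx1.1 (-0.29 ± 0.47, adjusted p = 0.822) and ventx2.1 (1.36 ± 1.67, adjusted p = 0.749) were not called.

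**Figure D4:**
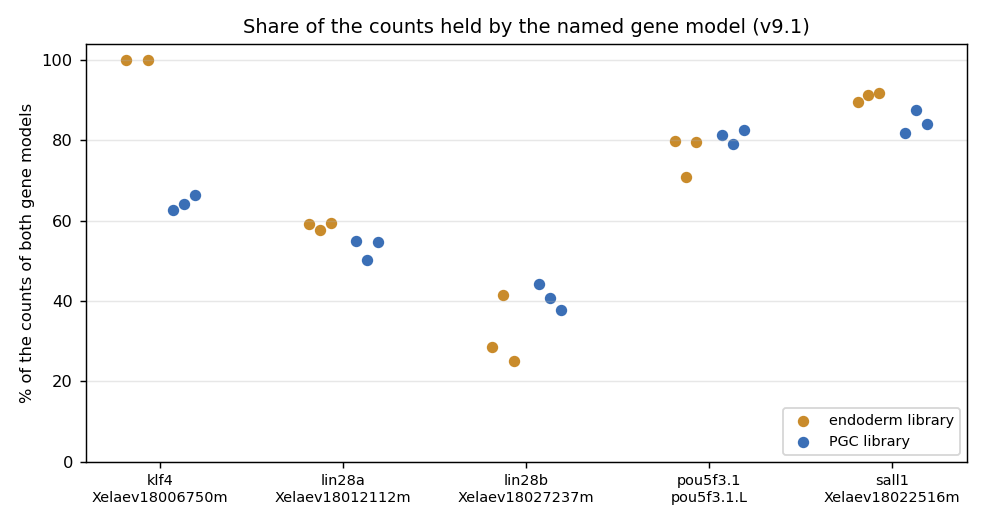
Share of a symbol's counts held by one of its 2 v9.1 gene models, in percent, in each endoderm and PGC library. For sall1 the share of Xelaev18022516m is 89.5 to 91.9% in endoderm and 81.8 to 87.6% in PGCs, for lin28b the groups overlap, and for klf4 endoderm replicate 2 had no counts.

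Among the 4 shared symbols, lin28a and sall1 were called lower in both tables and lin28b in neither, while klf4 had a call in v9.1 alone. The v7.1 total of sall1.L, 58804 counts, was close to that of v9.1 Xelaev18022516m, 59371, while Xelaev18024777m had 7394. For lin28a the v7.1 total was 59680, beside 92122 and 68855 in v9.1, and for lin28b it was 1772, beside 6666 and 11171. klf4 had 434 counts in v7.1 and 252 and 605 in v9.1. The tables give no length, so the levels of the regulators were not compared with each other. The deciles by mean level and the summed levels of marker lists used CPM without a correction for length.

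Genes that work with these regulators were described by list, with counts of v9.1 gene models beside the 12.6% higher and 16.8% lower of the whole table and its median of 0.07. Of 22 gene models of Pou5f3 partners and other pluripotency-associated genes, 4 were higher and 7 lower in PGCs (median 0.17). The higher ones included otx1 (3.78 ± 0.33) and sox3.S, a SoxB1 factor of the early ectoderm (3.59 ± 0.47). The lower ones included nr6a1, an orphan receptor known in the mouse to silence Oct4, in both gene models (-2.17 ± 0.09 and -2.06 ± 0.13), and nr5a2, which activates Oct4 in mouse cells (Xelaev18023460m, -1.82 ± 0.11). In v7.1 the list had 28 gene models, 7 higher and 7 lower (median 0.33). The higher ones included both gene models of vegt, a vegetally localized maternal T-box factor (5.03 ± 0.31 and 4.90 ± 0.60). The lower ones included nr6a1 (Xelaev15069875m.g, -2.26 ± 0.09) and tfcp2l1 (Xelaev15016528m.g, -1.55 ± 0.11).

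Of 11 v9.1 gene models of mammalian PGC specification genes, 1 was higher and 4 were lower (median 0.14). The higher one was dnd1, which protects germ cell mRNAs (5.77 ± 0.28), and a lower one was kitlg, the ligand of the Kit receptor (Xelaev18021250m, -1.82 ± 0.18). dnd1 is also among the PGC markers counted above. In v7.1 the list had 18 gene models, 7 higher and 2 lower (median 1.38). The higher ones included tfap2a (Xelaev15049243m.g, 4.07 ± 0.51) and tfap2c, which acts with Prdm1 and Prdm14 in mouse PGCs. tfap2a is also among the ectoderm markers counted above. Both lower ones were of sox17a (-0.73 ± 0.14 and -0.43 ± 0.15), which is also an endoderm marker. tfap2c had 145, 0 and 0 counts in endoderm and 893, 1027 and 618 in PGCs, so its endoderm level rested on replicate 1. Its call was lost without PGC replicate 2 (log2 4.48) and with the DESeq2 Wald test (log2 4.83).

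Of 35 gene models of the BMP pathway, which switches on ventx genes, 6 were higher and 10 lower in PGCs (median -0.17). The ligand gene bmp4 (Xelaev18041226m, -2.42 ± 0.28), the receptor gene bmpr2 (Xelaev18044937m, -1.73 ± 0.28) and the target id4 (Xelaev18033495m, -2.28 ± 0.20) were lower. The target msx2 (Xelaev18021422m, 2.62 ± 0.65), id2 (Xelaev18030066m, 2.24 ± 0.58) and msx1 (Xelaev18008924m, 1.91 ± 0.49) were higher. The call of id2 was lost without PGC replicate 2 (1.93) and that of msx1 without PGC replicate 1 (1.75). The other gene models of id2 (-0.19 ± 0.13), bmpr2 (-0.88 ± 0.70) and id4 (-0.71 ± 0.76) were not called. Of 24 gene models of dorsal organizer genes, which Ventx proteins repress in frog gastrulae, 10 were higher and 4 lower (median 1.73). Under lowess offsets 11 were higher and 2 lower (median 1.00). Summed over libraries, gsc had 2 counts in endoderm and 943 in PGCs, and not (Xelaev18004913m) had 21 and 1122. All endoderm counts of both came from endoderm replicate 1. In PGC replicates 1, 2 and 3 gsc had 335, 400 and 208 counts, and not had 558, 453 and 111. gsc is also among the mesoderm markers, whose summed levels are given above.

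Of 16 gene models of the Lin28 and let-7 pathway, 1 was higher and 5 lower (median -0.31). dicer1, the nuclease that cuts microRNA precursors, was higher (0.95 ± 0.24), and the let-7 targets igf2bp3 (Xelaev18000039m, -1.42 ± 0.15) and hmga2 (-1.22 ± 0.26) were lower. Of 36 gene models of NuRD subunits and corepressors that work with SALL and PRDM proteins, 2 were higher and 9 lower (median -0.16). Both higher ones were dnmt1, the maintenance DNA methyltransferase (1.86 ± 0.22 and 1.49 ± 0.28), and the lower ones included tet3, which oxidizes methylcytosine (-2.05 ± 0.21 and -1.81 ± 0.31). Of 38 gene models of other POU, PRDM, KLF and SALL genes, 3 were higher, prdm16 (Xelaev18037624m, 2.55 ± 0.62) among them, and 4 lower, klf3 (-1.30 ± 0.24) among them (median -0.13). The balance of some lists moved with the scaling: under lowess offsets 6 partner gene models were higher and 6 lower, 8 and 6 of the BMP pathway, 1 and 1 of the mammalian PGC specification genes (6 and 0 in v7.1) and 5 and 4 of the NuRD and corepressor list, and under total counts 4 and 1 of the other family members.

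**Figure D5:**
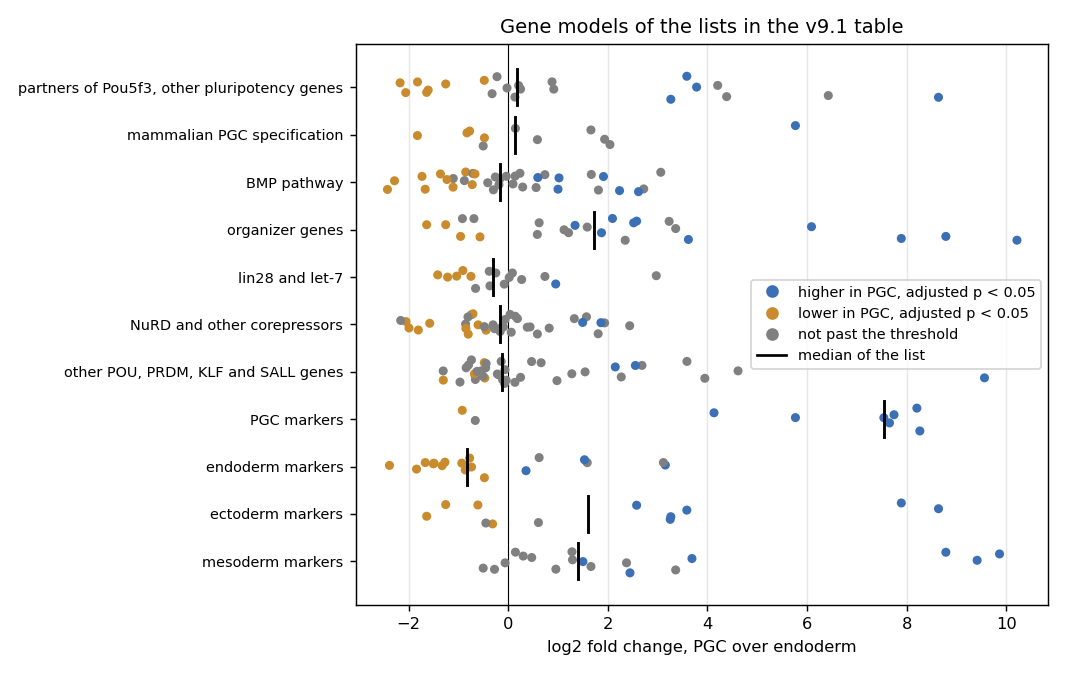
log2 fold change of PGC over endoderm of the v9.1 gene models of each list, with called gene models marked. Organizer genes have a median of 1.73 and endoderm markers one of -0.82, and each list of partners or cofactors holds gene models called in both directions.

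The gene models whose levels over the 6 libraries lay closest to prdm14, by Euclidean distance of log2(CPM + 1), were those of hoxc13 (0.476), rpa2 (0.508) and tmem143 (0.603). For klf4 Xelaev18010030m they were rgs22 (0.385), nppc (0.611) and the POU gene pou3f1 (0.624). In the authors' deposited table, which used a likelihood ratio test, the regulators at an FDR under 0.05 were those called here and ventx1.1.L (FDR of 0.0492).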

How the data were processed

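Ribosomal RNA-depleted RNA of PGCs and endoderm cells from stage 12 to 14 embryos was sequenced in 3 libraries per group, made from 1-ng aliquots of depleted RNA with the ScriptSeq v2 kit, per the labels' protocols. The submitters' processing notes name edgeR 3.12.0, HTSeq 0.6.0, TopHat2 2.1.0, SAMtools 1.2 and Bowtie2 2.2.6 without their roles. Not given in the sources used here: the build beyond the tags v9.1 and v7.1, strand use and the handling of reads with several matches. Near-identical copies such as homeologs are therefore uncertain.

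The deposited tables hold read counts per gene model, and the lowest total over the 6 libraries was 150 in both. Their deposited signal columns are counts divided by 1 constant per library and were not used. The log2 fold change, score (likelihood ratio) and p-value and FDR columns are the authors' own, per the file headers. Of per-sample columns, 0 were left unused.

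Each table was tested with edgeR 4.0.16 in R 4.3.3 (quasi-likelihood test, TMM scaling, 1 term for cell type, two-sided, Benjamini-Hochberg over the table, threshold 0.05). filterByExpr (minimum count 10, total 15) removed 0 gene models, so all 26 members passed. Folds against a group at 0 are bounds at 3 counts over the group, and cover counting error only. Fits and pair tests were tested on simulated counts. The members and the 11 lists were chosen with earlier results of these data known. Named genes were all members, up to 3 called gene models per list and direction by size of change above a mean of 5 CPM, 5 label checks, and the 3 gene models closest to prdm14 and klf4 (some of these are printed, and a few are not reported here). The v7.1 pair test was added after seeing the data. RefSeq's table (Xenopus_laevis_v10.1) was used for names and neighbours only. No sequence was analysed here. Settings tried were DESeq2 size factors, total counts, lowess offsets (limma 3.58.1), no filter or at least 2 CPM in 3 libraries, a replicate block, leaving out each library and the Wald test of DESeq2 1.42.0.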

Additional observations from a re-analysis of the deposited data

How the results depend on the processing

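Over 13 other settings, all 247 values of called members had the same sign and 223 were past the threshold, and 7 of 91 values of uncalled members passed it. These counts include the settings with no filter and with at least 2 CPM in 3 libraries. Both removed no gene models and repeated the main fit, so their values could not differ from it. The sign of lin28b Xelaev18029322m turned without PGC replicate 3 (-0.074), that of lin28b.S with DESeq2 size factors (0.048), total counts (0.17), the DESeq2 Wald test (0.047) and without some libraries (-0.11 to 0.16 over all 6), and that of the v7.1 klf4 gene model under lowess offsets (-0.77), the replicate block (-0.38) and without PGC replicate 3 (-0.72 to 0.98 without each library). In v9.1, 1301 gene models were higher and 1739 lower, against 1932 and 1117 under total counts and 1324 and 1145 under lowess offsets. The v7.1 higher calls were 1534 with the DESeq2 Wald test, against 1011. Higher v9.1 members numbered 1 under lowess offsets and under the replicate block, against 2, and 1 to 3 on leaving out a library. On leaving out a library, lower v9.1 members numbered 5 to 6, higher v7.1 members 6 to 8 and lower ones 4, and over all gene models 899 to 1323 were higher and 1337 to 1568 lower in v9.1, and for v7.1 712 to 1036 and 963 to 1140. The sall1 pair was called at 0.86 and was 0.71 to 1.04 on leaving out a library. The cause of these shifts was not tested.

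Deviations of same-numbered libraries correlated at -0.013 to 0.011 in v9.1 and at 0.0028 to 0.012 in v7.1. Those of other-numbered libraries correlated at -0.017 to 0.014 in v9.1 and at -0.010 to 0.0033 in v7.1. Not every library correlated best with its own number. With 3 libraries per group, these values cannot show whether the libraries were paired. With the replicate block, v9.1 had 1187 higher and 1682 lower gene models, v7.1 had 957 and 1240, and of the members klf4 Xelaev18010030m, sall1 Xelaev18024777m and ventx2.2 lost their calls. A minimum of 50 counts per group in the pair test could give no value for klf4, with a group at 0. Low counts limit klf4 and the endoderm level of prdm14.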
